A study of Mus musculus with 20 samples.

Results

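The inflammasome, pyroptosis and necroptosis pathways are represented here by 10 genes, taken by gene symbol and followed through both RNA-seq experiments of a study of nitric oxide in macrophages: Nlrp3, Nlrp1b, Aim2, Pycard, Casp1, Casp4, Gsdmd, Casp8, Ripk3 and Mlkl. They are 10 of the 56748 genes in the count tables, each symbol occurs once, and the rule used no measured value. By the tables' identifiers they are ENSMUSG00000032691 (Nlrp3) and ENSMUSG00000070390 (Nlrp1b) on chromosome 11, ENSMUSG00000037860 (Aim2) and ENSMUSG00000026029 (Casp8) on 1, ENSMUSG00000030793 (Pycard) on 7, ENSMUSG00000025888 (Casp1) and ENSMUSG00000033538 (Casp4) on 9, ENSMUSG00000022575 (Gsdmd) on 15, ENSMUSG00000022221 (Ripk3) on 14 and ENSMUSG00000012519 (Mlkl) on 8. In the first experiment wildtype (WT) and iNOS KO cells were left unstimulated or were stimulated with LPS (50 ng/mL) and IFNγ for 48 h, with 3 libraries in each of 4 groups. In the second, WT and Akr1a1 KO cells of RAW264.7, a mouse macrophage line, were treated in the same way, with 2 libraries in each of 4 groups. In the labels the first 12 libraries come from bone marrow-derived macrophages (BMDM) of male or female C57BL/6J mice aged 6 to 12 weeks, wildtype or iNOS KO, and received 30 ng/mL IFNγ, whereas the study's methods describe this experiment in RAW264.7 cells, which received 10 ng/mL. They are called libraries labelled BMDM here. The study took its iNOS KO mice from the B6.129P2-Nos2tm1Lau/J strain and pooled marrow by genotype, and describes the RAW264.7 replicates as independent clones, with the Akr1a1 KO made by CRISPR-Cas9. Both RAW264.7 unstimulated replicates B carry the word stimulated in their titles and unstimulated in their treatment fields, and the treatment fields were followed.

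An inflammasome is a protein platform that assembles when a sensor such as NLRP3 or AIM2 detects infection or damage. Through the adaptor ASC it activates caspase-1, which matures IL-1β and IL-18 and cuts gasdermin D, and the fragment of gasdermin D forms pores that end the cell by pyroptosis. Caspase-11, the product of mouse Casp4, cuts gasdermin D after binding LPS in the cytosol. Necroptosis is a second lytic death, in which RIPK3 phosphorylates MLKL and MLKL breaks the plasma membrane, while caspase-8 restrains it. In macrophages LPS and IFNγ are known to raise several of these transcripts.

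LPS/IFNγ raised most of the 10 transcripts in every genotype, beside 18.5% to 32.4% of all genes tested. The largest folds were those of Casp4, Mlkl, Casp1 and Nlrp3. Ripk3 departed from this rise. It fell on stimulation in WT libraries labelled BMDM and rose in the iNOS KO, so that stimulated iNOS KO cells held 3.38-fold more of it than stimulated WT cells. Of the other 9 genes 6 (Nlrp3, Aim2, Pycard, Casp1, Casp4 and Mlkl) were lower in the stimulated iNOS KO than in stimulated WT, by smaller folds apart from Pycard, which was near the limit of detection. Among all genes tested 24.2% were lower. The calls of Aim2, Pycard and Casp1 were lost without 9, 4 and 2 of the 12 libraries in turn. In RAW264.7 cells none of the 10 passed the test between Akr1a1 KO and WT, and at most 0.353% of all genes did in either direction. These are levels in bulk RNA, in which fewer cells with a transcript and less of it per cell cannot be told apart.

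Each library labelled BMDM held 15072109 to 18878107 counts, and each RAW264.7 library 11876719 to 44583327. Nos2, the gene of iNOS, was at 1.25 to 1.53 CPM (counts scaled to library size) in unstimulated WT and 10370 to 11530 CPM in stimulated WT libraries labelled BMDM, and at 0 and 870.5 to 911.8 CPM in the iNOS KO. In the RAW264.7 libraries with conflicting labels Nos2 was at 30.7 (WT) and 38.1 CPM (Akr1a1 KO). Unstimulated replicates A held 4.21 and 54.7 CPM, and the stimulated RAW264.7 libraries 4155 to 8806 CPM. Akr1a1 was at 426.9 to 674.7 CPM in WT and 21.9 to 370.4 CPM in Akr1a1 KO RAW264.7 libraries, and the difference did not pass without (adjusted p = 0.56) or with stimulation (adjusted p = 0.643). Of 8 macrophage markers Cd14, Cd68, Csf1r and Lyz2 stood at 291 CPM or more in all 20 libraries, while Adgre1 went down to 61.3, Fcgr1 to 4.15 and Itgam to 1.81 CPM, and Mertk, a receptor typical of primary macrophages, did not exceed 6.59 CPM. In the libraries labelled BMDM the sum of the 8 was 7850 to 8200 CPM in unstimulated and 7770 to 8720 in stimulated WT, and 5490 to 5870 in unstimulated and 12300 to 13000 in stimulated iNOS KO cells. Among 6 neutrophil markers S100a8 made up nearly all of the signal, and no other exceeded 1.14 CPM. Their sum was at most 1.11 CPM in unstimulated libraries, 34.7 to 61.2 in stimulated WT and 37.2 to 42.9 in stimulated iNOS KO libraries labelled BMDM, and 121 to 144 in stimulated WT and 248 to 420 CPM in stimulated Akr1a1 KO RAW264.7 libraries, with Retnlg at 0 counts throughout. The sum of 4 fibroblast markers was at most 0.293 CPM in unstimulated, 3.58 to 4.92 in stimulated WT and 10.4 to 15.8 CPM in stimulated iNOS KO libraries labelled BMDM, mostly from Dcn, with Col1a1 and Col1a2 at 0.146 CPM or below, and that of 4 dendritic cell markers was 0.9 to 1.73 in stimulated WT and 2.52 to 3.88 CPM in stimulated iNOS KO cells. The 6 lymphocyte and 3 mast cell markers each summed to at most 0.554 CPM in these libraries. The part of these markers in the results was not tested. One library stood apart: in stimulated iNOS KO replicate B, 1131 of 8971 genes were at least 1.5-fold below the mean of replicates A and C, against at most 35 genes in any other library labelled BMDM. Results that rest on it are therefore also given without it.

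Promoter sequence was available for 9 of the 10 genes (RefSeq, GRCm38.p6), and not for Gsdmd. The 250 bases before the start were searched on both strands for GAAANNGAAA (the interferon-stimulated response element, ISRE), TTCNNNGAA (the gamma-activated site, GAS) and GGGNNTTTCC (one form of the NF-κB site), which occur in 2.98%, 7.02% and 1.41% of all 32851 windows of that length. Casp4 alone had a match, with 2 NF-κB forms from 93 to 84 bases and, on the other strand, from 14 to 5 bases before the start. The windows of 3 genes are printed 5′ to 3′ in the direction of the gene, with matches in capitals: Casp4, which had the largest response in WT libraries labelled BMDM and the only matches, and Ripk3 and Mlkl, the kinase and its target, which responded in opposite directions in WT cells. They lie at chr9:5308599-5308848 on the plus strand, chr14:55788858-55789107 on the minus strand and chr8:111338206-111338455 on the minus strand.
Casp4: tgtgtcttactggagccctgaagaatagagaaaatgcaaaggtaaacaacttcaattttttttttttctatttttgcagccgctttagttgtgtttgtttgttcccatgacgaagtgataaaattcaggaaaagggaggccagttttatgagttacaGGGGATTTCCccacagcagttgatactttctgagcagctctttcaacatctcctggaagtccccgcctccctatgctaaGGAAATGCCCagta
Ripk3: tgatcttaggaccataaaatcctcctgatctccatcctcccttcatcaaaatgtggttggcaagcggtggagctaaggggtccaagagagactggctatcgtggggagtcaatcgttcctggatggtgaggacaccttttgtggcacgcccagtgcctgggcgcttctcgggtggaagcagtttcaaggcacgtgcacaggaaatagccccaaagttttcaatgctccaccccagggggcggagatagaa
Mlkl: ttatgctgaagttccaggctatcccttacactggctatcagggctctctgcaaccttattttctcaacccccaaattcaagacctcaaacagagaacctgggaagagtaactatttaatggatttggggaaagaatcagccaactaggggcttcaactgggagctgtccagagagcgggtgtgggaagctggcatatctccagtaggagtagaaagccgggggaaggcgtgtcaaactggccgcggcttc
The absence of a match says only that these letters are not in this window.

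In WT libraries labelled BMDM, stimulation raised 8 of the 10 genes and lowered 1, Ripk3, while Nlrp1b did not pass. Among all 18691 genes tested, 32.4% rose and 28.5% fell. The median log2 fold change of the 10 was 2.12, beside 0.0708 over all genes tested. In the iNOS KO, 9 of the 10 rose and none fell, with Pycard not passing, beside 27.3% rising and 24.6% falling among all genes, and the median was 1.58. Adjusted p-values come from quasi-likelihood F tests in edgeR, with the Benjamini-Hochberg method over all genes tested, and a gene is said to rise or fall where it is under 0.05. Fold changes are stimulated over unstimulated or KO over WT on the log2 scale, with the SE, and levels are CPM on TMM-scaled library sizes.

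**Figure D1:**
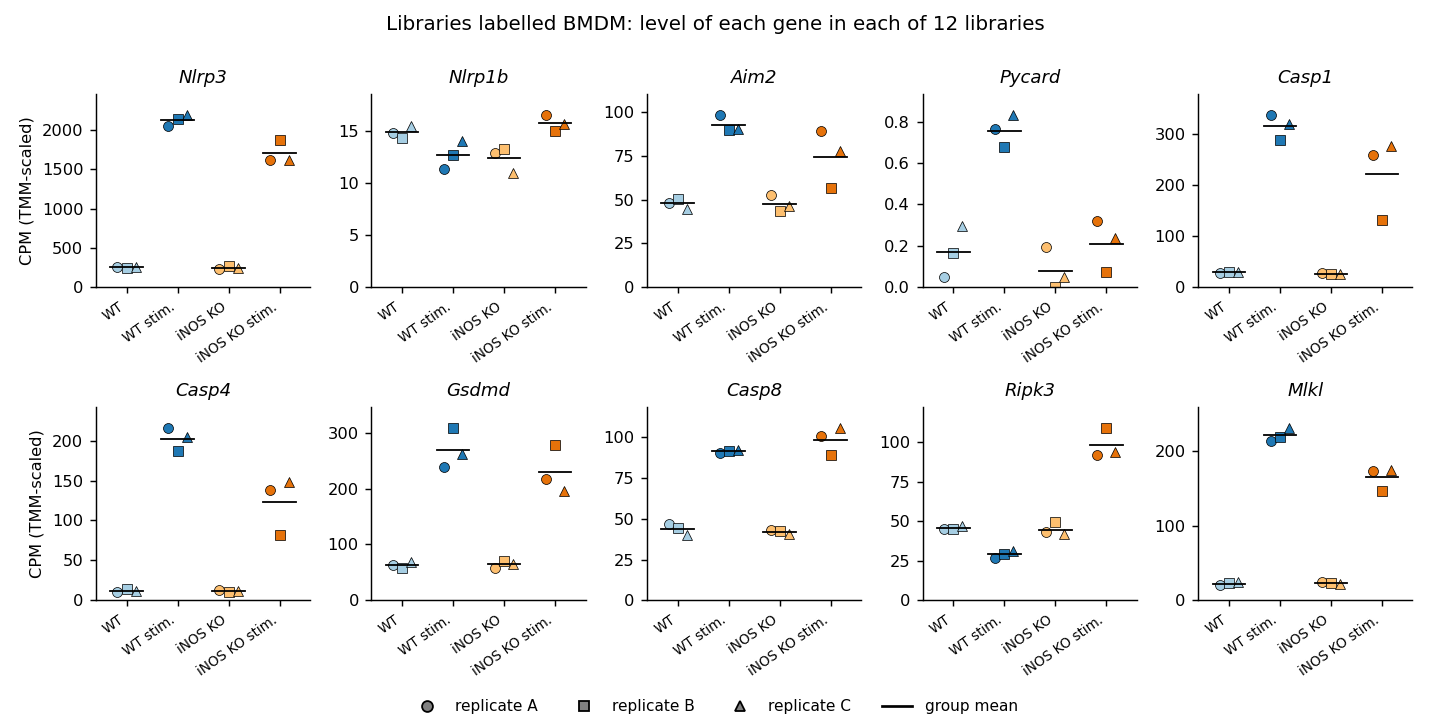
Level of each of the 10 genes in CPM (linear vertical axes from 0, a separate scale for each gene) in the 12 libraries labelled BMDM, with 1 symbol for each library and a line for the group mean. Ripk3 is lowest in the 3 stimulated WT libraries (27.0 to 31.3 CPM) and highest in the 3 stimulated iNOS KO libraries (91.9 to 108.9 CPM). Replicate B of the stimulated iNOS KO is the lowest of its group for Nlrp1b, Aim2, Pycard, Casp1, Casp4, Casp8 and Mlkl. It is the highest for Nlrp3, Gsdmd and Ripk3.

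Among the sensors, Nlrp3 was the most abundant, also per length: it ranked 1 of 10 in CPM per kilobase in all 4 groups labelled BMDM, with means of 62.1 in unstimulated and 524.4 in stimulated WT cells. In unstimulated cells it stood at 257.2, 245.1 and 252.9 CPM in WT replicates A, B and C and at 231.1, 265.0 and 240.8 CPM in the iNOS KO. In stimulated cells it stood at 2053, 2140 and 2189 CPM in WT and at 1617, 1874 and 1611 CPM in the iNOS KO. The unstimulated genotypes overlapped, and each stimulated iNOS KO library lay below each stimulated WT library. The response was 3.08 ± 0.0735 in WT (adjusted p = 1.03e-15) and 2.79 ± 0.0726 in the iNOS KO (adjusted p = 4.36e-15). Stimulated iNOS KO cells were lower than stimulated WT cells by a log2 fold change of -0.32 ± 0.0677, or 0.80-fold (adjusted p = 0.000753).

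Aim2, the sensor of DNA in the cytosol, rose less. Its CPM in unstimulated cells was 48.2, 50.5 and 44.6 in WT and 52.8, 43.3 and 46.1 in the iNOS KO. In stimulated cells it was 98.2, 89.5 and 90.3 in WT and 88.8, 56.6 and 77.8 in the iNOS KO, the lowest value being that of replicate B. The genotypes overlapped without stimulation and did not overlap with it, although the nearest pair differed by less than 1 CPM. The response was 0.96 ± 0.125 in WT (adjusted p = 3.65e-06) and 0.65 ± 0.124 in the iNOS KO (adjusted p = 0.000294). The stimulated difference of -0.32 ± 0.123 (adjusted p = 0.044) became -0.16 (adjusted p = 0.102) without replicate B and -0.48 (adjusted p = 0.00541) without replicate A. The threshold was lost without 9 of the 12 libraries in turn, and in a fit of the 2 stimulated groups alone (-0.24, adjusted p = 0.201).

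Nlrp1b, another inflammasome sensor, was low and moved little. Unstimulated WT libraries held 14.8, 14.3 and 15.4 CPM and unstimulated iNOS KO libraries 12.9, 13.3 and 10.98 CPM. Stimulated WT libraries held 11.3, 12.7 and 14.0 CPM and stimulated iNOS KO libraries 16.5, 15.0 and 15.7 CPM. The iNOS KO was thus below WT before stimulation and above it after, with no overlap in either state. The change on stimulation was -0.23 ± 0.108 in WT (adjusted p = 0.0773) and 0.35 ± 0.106 in the iNOS KO (adjusted p = 0.0111). The WT fall passed in a fit of the WT groups alone (-0.29, adjusted p = 0.0178) and without stimulated WT replicate C (-0.31, adjusted p = 0.0375). The stimulated iNOS KO was 1.24-fold above stimulated WT (0.31 ± 0.109, adjusted p = 0.0243), a call lost without stimulated WT replicate A (0.24) or B (0.32) or stimulated iNOS KO replicate A (0.26). The rise in the iNOS KO was lost without its unstimulated replicate C (0.27) or stimulated replicate A (0.29). Its close copy Nlrp1a had at most 5 counts in any group labelled BMDM, and how the authors assigned reads that match both is not given in the sources used here.

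Pycard, which encodes the adaptor ASC, was barely detected. The 12 libraries labelled BMDM held 57 Pycard counts among 204542132, and the 8 RAW264.7 libraries 44 among 162622904, so that 11603 and 11920 of 21970 protein-coding genes had more. By library the counts were 1, 3 and 5 in unstimulated WT, 11, 10 and 12 in stimulated WT, 4, 0 and 1 in unstimulated iNOS KO and 5, 1 and 4 in stimulated iNOS KO cells. Stimulated WT libraries were above all others, with 0.675 to 0.832 CPM, and the other 3 groups overlapped. The change in WT was 2.15 ± 0.643 (adjusted p = 0.00818), that in the iNOS KO was 1.33 ± 0.866 (adjusted p = 0.217), and stimulated iNOS KO was below stimulated WT by -1.78 ± 0.635 (adjusted p = 0.029). Without replicate B that difference was -1.42 (adjusted p = 0.0806), and the threshold was also lost without stimulated iNOS KO replicate C (-1.86) or stimulated WT replicate A (-1.77) or C (-1.71). A gene on the opposite strand, Gm45205, overlaps Pycard over 599 bases and had 54 counts in the same libraries, and whether the counting used strand is not given in the sources used here. Low Pycard is a known trait of the RAW264.7 line. Pycard was under 1 CPM in all 20 libraries, and the cause of the low counts was not tested.

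The inflammatory caspases showed the largest responses. Casp1, the protease of the inflammasome, stood at 28.9, 30.6 and 30.5 CPM in unstimulated WT and at 28.6, 26.6 and 25.2 CPM in unstimulated iNOS KO cells. Stimulated WT libraries held 338.1, 288.3 and 320.6 CPM, and stimulated iNOS KO libraries 259.5, 132.2 and 276.6 CPM. The 3 iNOS KO values lay below the 3 WT values, with replicate B far below its own group. Casp1 rose 10.5-fold in WT (3.40 ± 0.197, adjusted p = 1.11e-10) and 8.32-fold in the iNOS KO (3.06 ± 0.195, adjusted p = 7.83e-10). The stimulated difference was -0.50 ± 0.176 (adjusted p = 0.0265), and -0.24 ± 0.0643 (adjusted p = 0.003) without replicate B. The call was lost without stimulated WT replicate A (-0.45, adjusted p = 0.0904) or C (-0.49, adjusted p = 0.0665), and in a fit of the stimulated groups alone (-0.43, adjusted p = 0.152).

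Casp4, the LPS receptor of the noncanonical pathway, lies 1537 bases from Casp1 in the tables and had the largest fold of the 10 in WT. Unstimulated libraries held 10.6, 13.6 and 12.2 CPM in WT and 12.4, 10.4 and 11.5 CPM in the iNOS KO. Stimulated libraries held 215.9, 187.1 and 205.1 CPM in WT and 138.4, 82.1 and 147.8 CPM in the iNOS KO. All 3 stimulated iNOS KO libraries lay below the lowest stimulated WT library, and the unstimulated ones overlapped. Casp4 rose 16.8-fold in WT (4.07 ± 0.181, adjusted p = 3.11e-12) and 10.7-fold in the iNOS KO (3.42 ± 0.177, adjusted p = 4.61e-11). It was 1.65-fold lower in stimulated iNOS KO cells (-0.72 ± 0.153, adjusted p = 0.000837), and without replicate B the difference was -0.50 ± 0.073 (adjusted p = 1.32e-06).

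Gsdmd, whose protein forms the pore of pyroptosis, rose in both genotypes. Its CPM was 64.1, 57.3 and 67.9 in unstimulated WT and 57.9, 70.6 and 64.9 in unstimulated iNOS KO cells, and 238.8, 308.8 and 262.3 in stimulated WT and 216.8, 278.7 and 195.9 in stimulated iNOS KO cells. Within the stimulated iNOS KO, replicate B was here the highest library, and the genotypes overlapped. The response was 2.10 ± 0.126 in WT and 1.84 ± 0.125 in the iNOS KO, with adjusted p = 1.79e-10 and 1.88e-09. The stimulated difference did not pass (-0.23 ± 0.12, adjusted p = 0.131), and without replicate B it was -0.39 ± 0.0861 (adjusted p = 0.000389). With no filter on low counts it passed (-0.23, adjusted p = 0.0158).

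Casp8, which starts apoptosis from death receptors and holds back necroptosis, rose in both genotypes. It ranged from 40.1 to 46.7 CPM over the 6 unstimulated libraries, from 90.7 to 92.4 CPM in stimulated WT and from 89.2 to 105.8 CPM in stimulated iNOS KO cells, so that the stimulated genotypes overlapped. The response was 1.07 ± 0.0784 in WT (adjusted p = 2.43e-09) and 1.23 ± 0.0782 in the iNOS KO (adjusted p = 7.61e-10). The stimulated difference was 0.11 ± 0.0765 (adjusted p = 0.27), and 0.17 ± 0.0641 (adjusted p = 0.0248) without replicate B.

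The necroptosis kinase and its target parted. Ripk3 stood at 44.9, 44.9 and 47.2 CPM in unstimulated WT and at 42.9, 49.4 and 41.8 CPM in unstimulated iNOS KO cells. Stimulated WT libraries held 27.0, 29.0 and 31.3 CPM, and stimulated iNOS KO libraries 91.9, 108.9 and 93.9 CPM. The unstimulated genotypes overlapped, every stimulated WT library lay below every unstimulated library, and every stimulated iNOS KO library lay above them. Ripk3 fell in WT to 0.637-fold (-0.65 ± 0.091, adjusted p = 8.28e-06) and rose 2.2-fold in the iNOS KO (1.14 ± 0.0872, adjusted p = 8.89e-09). Stimulated iNOS KO was above stimulated WT by 1.76 ± 0.091 (adjusted p = 8e-11), and by 1.68 ± 0.076 (adjusted p = 1.2e-16) without replicate B. By level per kilobase Ripk3 ranked 3 of 10 in unstimulated cells of both genotypes, 8 of 10 in stimulated WT and 5 of 10 in stimulated iNOS KO cells. In stimulated WT cells the means ran, in CPM per kilobase, from 524.4 for Nlrp3 over 113.6 for Gsdmd, 100.6 for Casp1, 96.3 for Mlkl, 54.6 for Casp4, 31.7 for Casp8 and 26.5 for Aim2 to 12.7 for Ripk3, 2.01 for Nlrp1b and 0.199 for Pycard.

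Mlkl, the substrate of RIPK3 that disrupts the membrane, rose in both genotypes. Unstimulated WT libraries held 20.2, 22.6 and 24.1 CPM and unstimulated iNOS KO libraries 23.9, 22.7 and 22.4 CPM. Stimulated WT libraries held 214.1, 219.8 and 231.5 CPM and stimulated iNOS KO libraries 174.0, 146.9 and 174.9 CPM. The unstimulated genotypes overlapped, and all 3 stimulated iNOS KO values lay below the WT values. The response was 3.31 ± 0.0887 in WT (adjusted p = 3.95e-15) and 2.85 ± 0.087 in the iNOS KO (adjusted p = 3.69e-14). Stimulated iNOS KO was 1.34-fold lower (-0.42 ± 0.0789, adjusted p = 0.00025), and the difference was -0.35 ± 0.0619 (adjusted p = 2.68e-05) without replicate B.

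Set together, 0 of the 10 genes passed between unstimulated iNOS KO and WT cells by edgeR or by DESeq2, while 1.88% of all genes tested were higher and 4.09% lower by edgeR. At an unadjusted p under 0.05 there was 1, Nlrp1b (-0.26 ± 0.105, adjusted p = 0.196), beside 3200 of all 18691 genes tested. Between stimulated iNOS KO and stimulated WT cells, 2 were higher (Ripk3 and Nlrp1b), 6 were lower (Nlrp3, Aim2, Pycard, Casp1, Casp4 and Mlkl) and 2 did not pass (Gsdmd and Casp8). Among all genes 24.2% were higher and 24.2% lower. The groups did not overlap for the 8 that passed, and the share of all genes separated in this way was not computed. The median of the 10 was -0.32, beside -0.04 over all genes. Without replicate B of the stimulated iNOS KO also 8 passed, but Aim2 and Pycard were replaced by Gsdmd, which was lower, and Casp8, which was higher. The share of all genes that passed without it was not computed. Leaving out stimulated WT replicate A brought the 8 down to 4, and leaving out stimulated WT replicate C to 5.

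**Figure D2:**
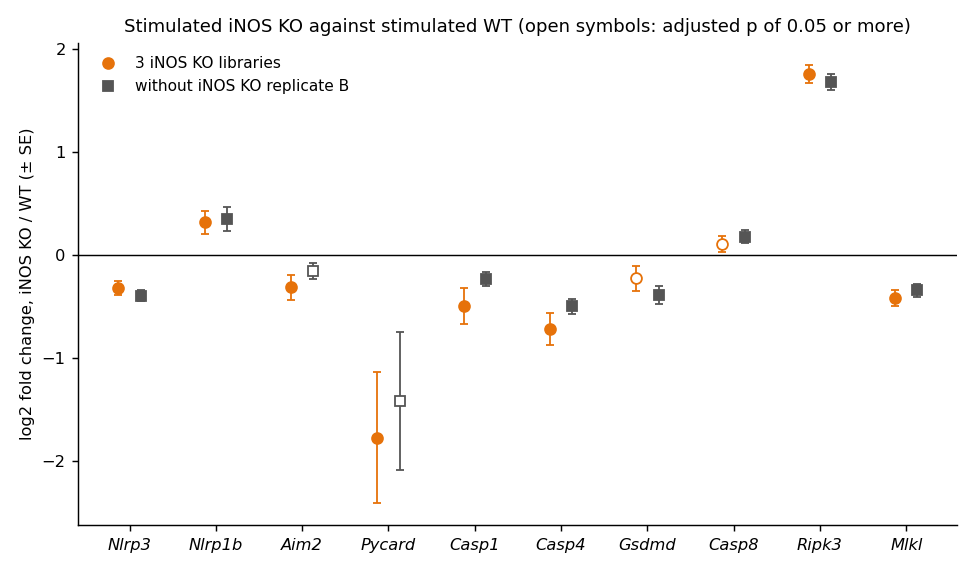
Log2 fold change of stimulated iNOS KO over stimulated WT cells (vertical axis, bars are SE) for the 10 genes, with all 3 iNOS KO libraries and without replicate B. Ripk3 stands at 1.76 and 1.68, Aim2 and Pycard pass only with replicate B, and Gsdmd and Casp8 only without it.

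The difference between the 2 responses was tested as the interaction of genotype and stimulation, in the 12 libraries. It passed for 5 of the 10 genes, upwards for Ripk3 and Nlrp1b and downwards for Nlrp3, Casp4 and Mlkl, beside 20.0% upwards and 15.4% downwards among all genes. Ripk3 was the largest, with 1.79 ± 0.126 (adjusted p = 8.43e-09), and stayed between 1.71 and 1.86 with any library left out. Mlkl had -0.47 ± 0.118 (adjusted p = 0.00468) and Nlrp1b 0.58 ± 0.151 (adjusted p = 0.0063), and both also passed with any library left out. Nlrp3 (-0.29 ± 0.0963, adjusted p = 0.028) and Casp4 (-0.64 ± 0.241, adjusted p = 0.0483) lost the threshold without 6 and without 8 of the 12 libraries in turn, while without stimulated iNOS KO replicate B both passed (-0.36 and -0.42). Casp1 did not pass (-0.34 ± 0.261, adjusted p = 0.355), although it did with no filter on low counts (-0.34, adjusted p = 0.0208). Its value was -0.07 without replicate B. Without that replicate 7 genes passed, Gsdmd and Casp8 being added, and the share of all genes was not computed.

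In RAW264.7 cells stimulation raised 7 of the 10 genes in WT and 7 in the Akr1a1 KO, and lowered none in either. The same 7 passed in both: Nlrp3, Aim2, Casp1, Casp4, Gsdmd, Casp8 and Mlkl. In WT 18.5% of all 19569 genes tested rose and 19.2% fell, and in the Akr1a1 KO 19.8% rose and 19.4% fell. The median log2 fold change of the 10 was 1.28 in WT and 1.47 in the Akr1a1 KO. When both libraries with conflicting labels were left out, 7 still passed in WT and 6 in the Akr1a1 KO, where Gsdmd was lost (0.90, adjusted p = 0.0797). That setting leaves 1 library in each unstimulated group, which is then assumed to vary like the other groups.

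**Figure D3:**
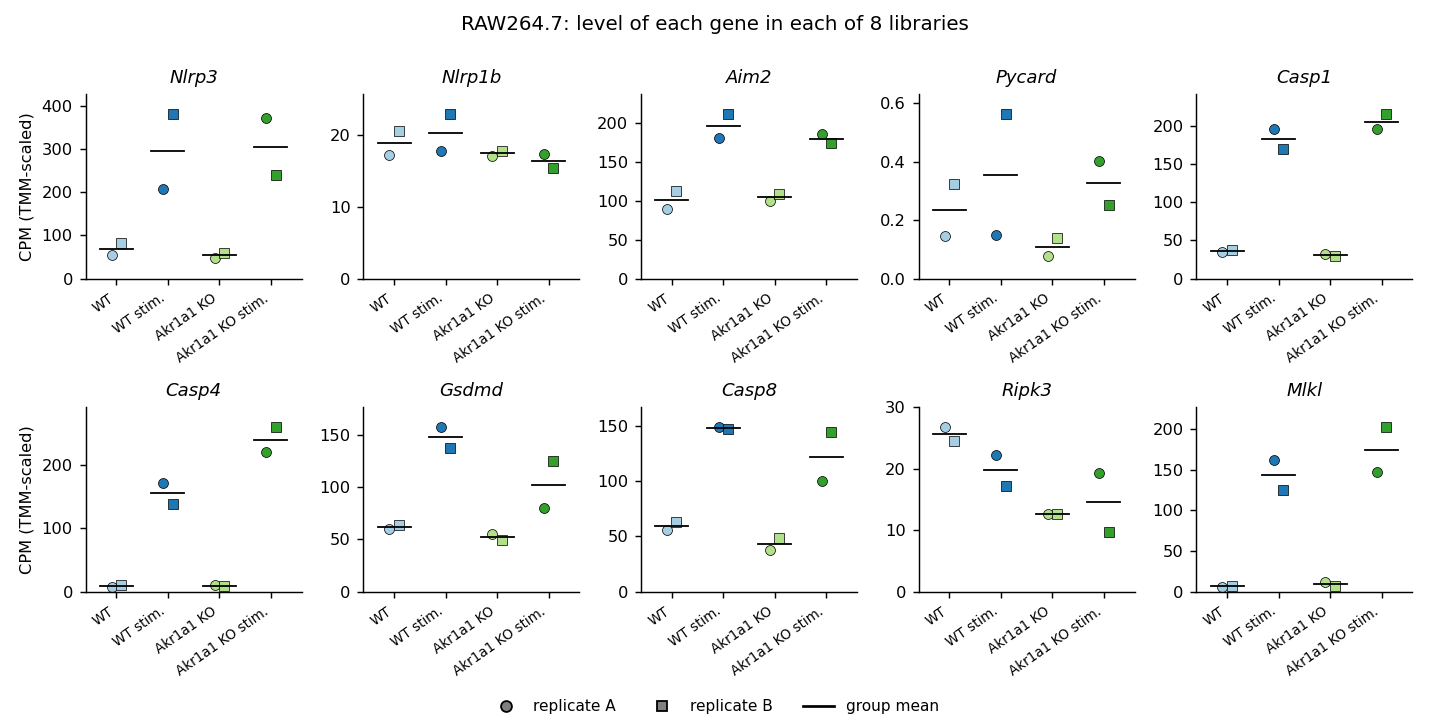
Level of each of the 10 genes in CPM (linear vertical axes from 0, a separate scale for each gene) in the 8 RAW264.7 libraries, with 1 symbol for each library and a line for the mean of 2. Casp4 and Mlkl are at 11.3 CPM or below without stimulation and at 124.8 CPM or above with it in both genotypes, and Ripk3 stays at 26.8 CPM or below in all 8 libraries.

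The largest responses in RAW264.7 cells were those of Mlkl and Casp4. Mlkl stood at 6.03 and 6.84 CPM in unstimulated WT, 162.6 and 124.8 CPM in stimulated WT, 11.3 and 7.06 CPM in unstimulated Akr1a1 KO and 147.1 and 202.6 CPM in stimulated Akr1a1 KO replicates A and B. Its response was 4.47 ± 0.281 in WT (adjusted p = 1.22e-05) and 4.28 ± 0.278 in the Akr1a1 KO (adjusted p = 1.47e-05). Casp4 stood at 7.55 and 10.8, 171.4 and 138.6, 10.1 and 8.77, and 220.4 and 259.7 CPM in the same order of groups. Stimulated and unstimulated libraries were far apart for both genes, while the genotypes overlapped for Mlkl with stimulation and for Casp4 without it. The Casp4 response was 4.06 ± 0.214 in WT (adjusted p = 5.55e-06) and 4.67 ± 0.221 in the Akr1a1 KO (adjusted p = 4.13e-06).

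Casp1 was at 34.9 and 38.0 CPM in unstimulated WT, 195.9 and 170.4 CPM in stimulated WT, 32.8 and 30.0 CPM in unstimulated Akr1a1 KO and 196.1 and 215.8 CPM in stimulated Akr1a1 KO cells, a response of 2.33 ± 0.132 (adjusted p = 7.75e-06) in WT and 2.72 ± 0.134 (adjusted p = 4.77e-06) in the KO. Nlrp3 varied more between replicates: stimulated libraries held 207.9 and 381.6 CPM in WT and 372.8 and 239.1 CPM in the Akr1a1 KO, against 48.7 to 82.7 CPM in the 4 unstimulated libraries. Its response was 2.09 ± 0.339 in WT (adjusted p = 0.00161) and 2.51 ± 0.345 in the Akr1a1 KO (adjusted p = 0.000652). Gsdmd, Casp8 and Aim2 responded by 1.25 ± 0.201, 1.31 ± 0.194 and 0.95 ± 0.15 in WT and by 0.98 ± 0.201, 1.51 ± 0.196 and 0.78 ± 0.15 in the Akr1a1 KO. Without stimulated Akr1a1 KO replicate B the Gsdmd response there was 0.63 (adjusted p = 0.0174). In every one of these 7 genes both stimulated libraries lay above both unstimulated libraries of the same genotype. The 7 had already passed the test, and the share of all genes separated in this way was not computed.

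Ripk3, Nlrp1b and Pycard did not pass in either genotype of RAW264.7. Ripk3 stood at 26.8 and 24.6 CPM in unstimulated WT, 22.3 and 17.3 CPM in stimulated WT, 12.6 and 12.6 CPM in unstimulated Akr1a1 KO and 19.4 and 9.67 CPM in stimulated Akr1a1 KO cells. The change on stimulation was -0.38 ± 0.298 in WT (adjusted p = 0.358) and 0.20 ± 0.303 in the Akr1a1 KO (adjusted p = 0.645). In WT both stimulated libraries lay below the unstimulated ones, and the 2 stimulated Akr1a1 KO libraries lay on either side of the unstimulated ones. Nlrp1b ranged from 15.4 to 22.9 CPM over the 8 libraries, and Pycard from 1 to 15 counts.

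Between Akr1a1 KO and WT RAW264.7 cells 0 of the 10 genes passed by edgeR or by DESeq2, unstimulated, stimulated or for the interaction. Calls were rare over all genes as well: 0.230% higher and 0.353% lower without stimulation, 0.0869% higher and 0.199% lower with it, and 0.00511% and 0.0153% up and down for the interaction. At an unadjusted p under 0.05 there were 2 genes without stimulation, Ripk3 (-1.02 ± 0.301, adjusted p = 0.333) and Casp8 (-0.47 ± 0.193, adjusted p = 0.597). Both were lower in the 2 KO than in the 2 WT libraries, without overlap, but the groups did not overlap for 6 of the 10 genes here. The share of all genes separated in this way was not computed. With stimulation there were also 2, Casp4 (0.63 ± 0.186, adjusted p = 0.271) and Gsdmd (-0.53 ± 0.199, adjusted p = 0.384), and 0 for the interaction. Among all 19569 genes tested, 1574 were under this unadjusted threshold without stimulation, 2178 with it and 1079 for the interaction. With no filter on low counts, Ripk3 passed without stimulation (adjusted p = 0.00142), and Casp4 (0.0077) and Gsdmd (0.0474) with it. Their log2 fold changes hardly moved (-1.03, 0.632 and -0.529), so these calls depend on the filter. The share of all genes that passed in this setting was not computed. With 2 libraries a group these values do not show that the genotypes were alike.

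**Figure D4:**
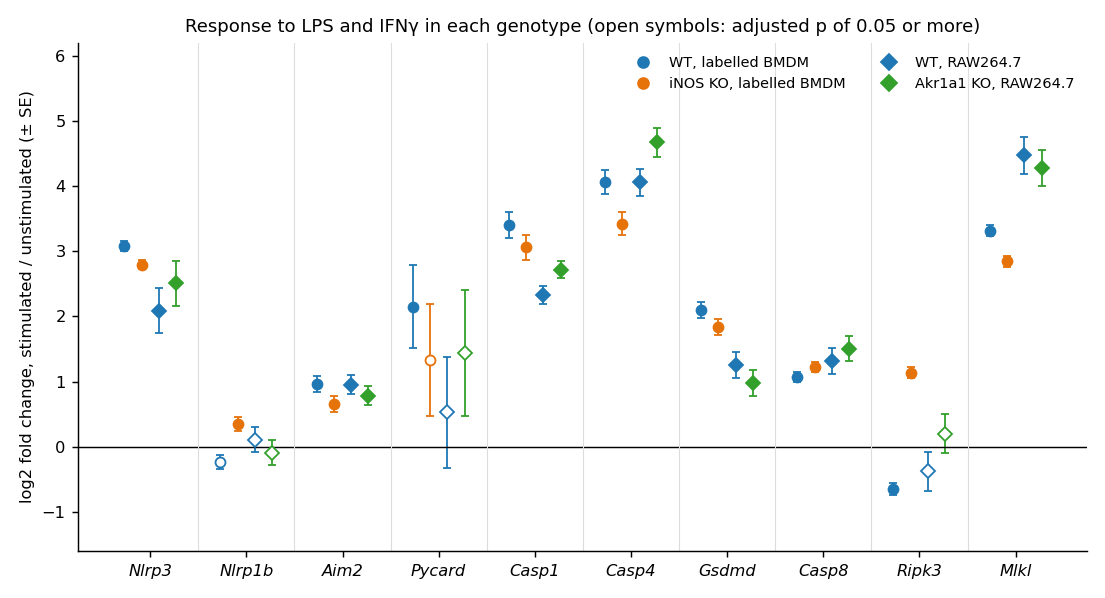
Log2 fold change of stimulated over unstimulated cells (vertical axis, bars are SE) for the 10 genes in the 4 genotypes, WT and iNOS KO of the libraries labelled BMDM (circles) and WT and Akr1a1 KO of RAW264.7 (diamonds). Ripk3 lies at -0.65 in WT and 1.14 in the iNOS KO, and Casp4 lies between 3.42 and 4.67 in all 4.

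The WT responses of both experiments were compared in 1 fit of all 20 libraries and 21826 genes. Mlkl responded more in RAW264.7 cells than in libraries labelled BMDM, by 1.22 ± 0.23 (adjusted p = 0.000637). Nlrp3 (-0.92 ± 0.295, adjusted p = 0.0317), Casp1 (-1.002 ± 0.273, adjusted p = 0.0115) and Gsdmd (-0.78 ± 0.236, adjusted p = 0.0236) responded less, and 6 genes did not pass. Over all genes 11.1% were up and 9.49% down. This fit takes 1 spread for each gene over both experiments. Its SEs for Nlrp3 and Mlkl were below those of the RAW264.7 WT response alone (0.339 and 0.281), so their adjusted p-values may be too low. For Casp1 and Gsdmd its SEs were above those of that response (0.132 and 0.201). Casp1 and Mlkl passed with any 1 of the 20 libraries left out. Nlrp3 lost the threshold in 5 of these settings, with -0.60 without RAW264.7 unstimulated WT replicate B and -0.58 without stimulated WT replicate A of the same cells, and was lost as well without any of the unstimulated WT libraries labelled BMDM. Without RAW264.7 stimulated WT replicate B it was -1.44. Gsdmd lost it in 4, without unstimulated or stimulated WT replicate B of either experiment. The experiments differ in the labelled cells, the labelled IFNγ dose and the count table at once, and these cannot be told apart.

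Other genes of the pathway were described in 6 lists that hold 62 genes, of which 54 were tested in each experiment. In WT libraries labelled BMDM 41 of the 54 rose and 8 fell on stimulation, beside 32.4% and 28.5% of all genes tested, and in the iNOS KO 40 rose and 6 fell, beside 27.3% and 24.6%. The largest rises in WT were those of the guanylate binding proteins that open the way to cytosolic LPS, Gbp5, Gbp2 and Gbp3, and of the related GTPase gene Gm12250. Their mean levels in WT went from 0.0185 to 1461 CPM for Gbp5, 0.239 to 1432 for Gbp2, 0.862 to 806.7 for Gbp3 and 0.0577 to 195.0 for Gm12250, so that the folds rest on few unstimulated counts. The largest falls were those of Nlrp10 (-2.80 ± 0.135), Casp2 (-1.06 ± 0.0875) and the ATP receptor gene P2rx7 (-0.70 ± 0.1). Of the interleukin-1 family and its inhibitors all 5 tested genes rose in each genotype, and Il1b went from 0.775 ± 0.452 to 336.8 ± 28.0 CPM in WT (SD, n = 3). In RAW264.7 cells 32 rose and 6 fell in WT, beside 18.5% and 19.2% of all genes, and 31 rose and 4 fell in the Akr1a1 KO, beside 19.8% and 19.4%. Without the libraries of conflicting labels 27 of 53 rose and 4 fell in WT, and 28 rose and 2 fell in the Akr1a1 KO.

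Between unstimulated iNOS KO and WT cells 0 of these 54 genes were higher and 6 lower, beside 1.88% and 4.09% of all genes. In the fit without stimulated iNOS KO replicate B, 2 were higher and 11 lower. That replicate belongs to neither group, and the share of all genes in that fit was not computed. Among the 6 were Fadd (-0.52 ± 0.115), the adaptor between death receptors and caspase-8, and Ninj1 (-0.45 ± 0.0709), whose protein ruptures the membrane of dying cells. Between the stimulated genotypes 9 were higher and 22 lower, beside 24.2% in each direction among all genes. The counts were 11 and 23 without replicate B, again with no share of all genes computed. The list of death receptor and necroptosis signalling had 3 higher and 11 lower among 21, the licensing and regulator list 0 and 4 among 12, the interleukin-1 family and its inhibitors 1 and 3 among 5, the other sensors 2 and 2 among 8, the other lytic effectors 0 and 2 among 3, and the other caspases 3 and 0 among 5. The largest difference was that of Txnip, whose protein binds NLRP3. It stood at 556.7 ± 42.4 CPM in stimulated WT and at 90.6 ± 11.3 CPM in stimulated iNOS KO cells (SD, n = 3), a log2 fold change of -2.62 ± 0.0907 (adjusted p = 5.06e-13).

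The cytokine Il18 was higher in stimulated iNOS KO cells, at 20.4 ± 3.34 CPM against 6.51 ± 0.94 CPM in WT (1.65 ± 0.164, adjusted p = 2.5e-07), and its inhibitor Il18bp was lower, at 51.2 ± 3.64 against 106.1 ± 5.45 CPM (-1.05 ± 0.127, adjusted p = 2.57e-06). The other named rises were those of the sensor Nlrc4 (1.09 ± 0.127) and the death receptor gene Fas (0.98 ± 0.127). The other named falls were those of Tnf (-1.18 ± 0.0887), which went from 4457 to 1967 CPM in the means, and the deubiquitinase gene Cyld (-0.81 ± 0.108). For the interaction 8 of the 54 passed upwards and 13 downwards, beside 20.0% and 15.4% of all genes. Without replicate B, where the share of all genes was not computed, 11 and 15 passed. With all 12 libraries these were led by Fas (1.44 ± 0.241) and Il18 (1.42 ± 0.289) and by Txnip (-2.28 ± 0.123) and Il18bp (-1.88 ± 0.387). In RAW264.7 cells 0 of the 54 passed between Akr1a1 KO and WT in either state by edgeR.

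**Figure D5:**
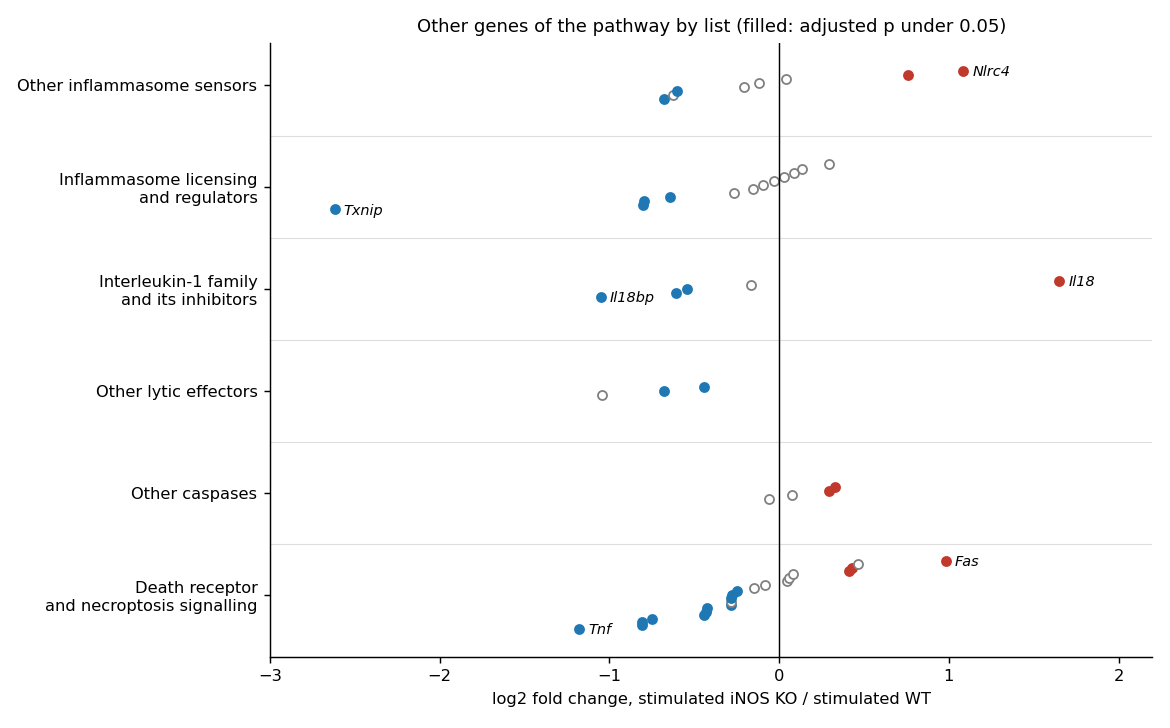
Log2 fold change of stimulated iNOS KO over stimulated WT cells (horizontal axis) for 53 of the 54 tested genes of 6 pathway lists (rows), with 1 point for each gene, filled where the adjusted p is under 0.05. Points are spread vertically within a row only for legibility, and Txnip (-2.62) and Il18 (1.65) lie at the ends.

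As a description, the protein-coding genes whose log2 CPM followed each member most closely over the 12 libraries labelled BMDM were listed. Ripk3 was closest to Vasp (Pearson r = 0.992) and Calr (0.991), Casp4 to Cflar and Lgals8 (both 0.999), Casp1 to Cpd and Lgals8 (both 0.998), Mlkl to Il15 and Samhd1 (both 0.999), Gsdmd to Dip2a (0.997) and Mtf1 (0.995), and Aim2 to Chmp5 and Usp25 (both 0.986). The 12 libraries fall into 4 groups, so that such values mainly reflect shared group means. For Nlrp1b the closest gene reached 0.894.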

How the data were processed

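Poly(A)-enriched libraries of the 20 samples were sequenced by Novogene. According to the study's methods and the submitters' notes, the authors filtered the reads and aligned them to mm10 with STAR (CASAVA is also named); the counting tool, annotation and use of strand are not given in the sources used here. The deposited tables hold raw counts for 56748 genes, and their positions do not match GRCm38, so no build is stated for them. Groups followed the labels, and letters give replicates. The study's methods call the 3 libraries of a group biological replicates. They describe BMDM marrow as pooled by genotype, and neither they nor the labels say whether these libraries were separate cultures or pools. P-values measure the spread between these libraries. For cultures of the same pool that holds no spread between animals, within or between the genotypes. The 10 genes, the pathway lists and the tests were chosen with earlier results of these data known.

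A total of 10 counts was the minimum for a gene to be tested (18691, 19569 and 21826 genes in the 2 experiments and their joint fit). Counts were scaled by TMM and fitted with 1 mean per group in edgeR 4.0.16 (R 4.3.3) with quasi-likelihood F tests and Benjamini-Hochberg adjustment. SEs were derived from the fold change and F. All 10 genes passed the filter, Pycard with 57 counts over the libraries labelled BMDM (9, 33, 5 and 10 in unstimulated and stimulated WT and unstimulated and stimulated iNOS KO). Scripts were tested on simulated data. Named pathway genes were up to 4 rises and 4 falls per comparison among those passing with a mean log2 CPM over 0; Il1b met this in RAW264.7 cells, and 1 gene that met it is counted but not reported here. DESeq2 1.42.0, its size factors, filterByExpr, no filter, a fold limit, a replicate block, only the groups compared, and each library left out were the alternatives. In RAW264.7 cells a replicate block nested in genotype was another. The RAW264.7 fit without libraries of conflicting labels, and the pathway counts without stimulated iNOS KO replicate B, were added after seeing the data. Promoters are from RefSeq (GRCm38.p6), and plots were made in Python 3.11.15 (matplotlib 3.10.9).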

Additional observations from a re-analysis of the deposited data

Results flagged for a closer look

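Among the results 9 differ between groups by a direct test of the difference in edgeR's quasi-likelihood fit. In the libraries labelled BMDM the response to LPS/IFNγ differed between iNOS KO and WT by 1.79 (SE 0.126, adjusted p = 8.43e-09) for Ripk3, 0.58 (SE 0.151, adjusted p = 0.0063) for Nlrp1b, -0.47 (SE 0.118, adjusted p = 0.00468) for Mlkl, -0.64 (SE 0.241, adjusted p = 0.0483) for Casp4 and -0.29 (SE 0.0963, adjusted p = 0.028) for Nlrp3 on the log2 scale. Without stimulated iNOS KO replicate B these were 1.71 for Ripk3, -0.39 for Mlkl, -0.42 for Casp4 and -0.36 for Nlrp3. The WT response of RAW264.7 cells minus that of the libraries labelled BMDM was 1.22 (SE 0.23, adjusted p = 0.000637) for Mlkl, -1.002 (SE 0.273, adjusted p = 0.0115) for Casp1, -0.92 (SE 0.295, adjusted p = 0.0317) for Nlrp3 and -0.78 (SE 0.236, adjusted p = 0.0236) for Gsdmd. The SEs of Mlkl and Nlrp3 in this joint fit may be too small.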

How the results depend on the processing

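Over 2000 values of the 10 genes under the alternatives, 1923 kept their direction and their side of the threshold, 65 lost it, 12 gained it and 0 that passed changed sign. Of 201 counts of genes that passed, 188 stayed within 1.5 times the reported count. With a fold limit of 1 on the log2 scale, 2 genes passed between stimulated iNOS KO and WT, 1 for the interaction in the libraries labelled BMDM and 2 for the difference of the WT responses. With no filter on low counts, 1 gene passed between unstimulated and 2 between stimulated Akr1a1 KO and WT RAW264.7 cells. In the libraries labelled BMDM this setting added Gsdmd between the stimulated genotypes and Casp1 for the interaction. With each library left out in turn the counts ranged from 4 to 8 between stimulated iNOS KO and WT (lowest without stimulated WT replicate A), from 3 to 7 for the interaction (3 without unstimulated WT replicate C, stimulated WT replicate B or C, or unstimulated iNOS KO replicate B) and from 2 to 4 for the difference of the WT responses (2 without unstimulated WT replicate B of either experiment). The fold limit removes calls by its construction, and the cause of the other changes was not tested.

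The replicate letters did not pair the samples over all groups: correlations of the deviations from the group means ran from -0.517 to 0.497 in the libraries labelled BMDM, with 7 of 18 pairs over 0.1, and from -0.165 to 0.438 in RAW264.7 cells, with 4 of 12 over 0.1. With 2 libraries a group, replicates A and B give the same value, so the 12 are not separate results. Those over 0.1 joined the unstimulated and stimulated groups of the same genotype (0.438 in WT and 0.103 in the Akr1a1 KO). Between unstimulated and stimulated iNOS KO cells all 3 pairs were over 0.1 (0.404, 0.497 and 0.121). With the letter as a replicate block the counts were 9, 9, 0, 8 and 5 in the libraries labelled BMDM and 7, 7, 0, 0 and 0 in RAW264.7 cells, equal to those without it, and no gene among the 10 changed its call. With a block nested in genotype in RAW264.7 cells, 7 genes passed for the response of each genotype and 0 for the interaction. Precision is lower in RAW264.7 cells, with 2 libraries a group and a common dispersion of 0.0522 against 0.00845, and Pycard is limited by its counts in both experiments.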
